A study of Mus musculus with 15 samples.

Results

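The transcripts described here were assembled from mouse kidney RNA-seq reads in places where the annotation used by the authors had no gene. They are the rows of the deposited transcript table with the class code u, which StringTie's comparison step gives to an assembled transcript that overlaps no annotated gene. There were 3978 of them among 129029 listed transcripts, and 36125 of the listed transcripts had been assembled from the reads rather than taken from the annotation. The kidneys came from 15 male C57BL/6 mice (so labelled, and C57BL/6J in the paper), 5 aged 3 months, 5 aged 12 months and 5 aged 24 months, kept at 25°C on standard chow, with 1 library per mouse, and the labels name no treatment or engineered allele. The paper compared 24-month-old with 3-month-old mice and did not report on the 12-month-old mice. The sample titles of all 3 ages begin with 3M, so the age was taken from the age label. The labels describe removal of ribosomal RNA and a stranded library, whereas the paper describes capture of polyadenylated RNA. Values are FPKM (fragments per kilobase of a transcript, relative to the library's total), which are corrected for length and so allow levels of different transcripts to be compared. In whole-kidney RNA, fewer cells of a type and less RNA per cell cannot be told apart.

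Intergenic transcription gives rise to several kinds of RNA. Long intergenic noncoding RNAs are made by RNA polymerase II from promoters of their own, are often spliced and polyadenylated, and are usually less abundant and more tissue-restricted than mRNAs. Other intergenic RNA comes from divergent transcription at gene promoters, from polymerase that reads on past the end of a gene, from enhancers, and from primary microRNA transcripts. StringTie joins overlapping reads into transcript models, so a single long RNA with uneven coverage can be listed as several neighbouring models.

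A start site that an independent annotation also places there was available for few of these transcripts. Of the 32851 promoter windows of the RefSeq table (build GRCm38.p6, 250 bases before to 50 bases after each gene's start), 188 of the intergenic transcripts overlapped one and 113 started inside one, 48 of them only on the strand of the RefSeq gene, 55 only on the opposite strand and 10 on both. The 5 windows printed here belong to the clearest change with age (Gm39900, chr2:105435282-105435581, plus strand, beside MSTRG.20255.5), a spliced transcript with an age difference (Gm36071, chr7:71153980-71154279, plus strand, beside MSTRG.33245.38), one of the 10 most abundant transcripts (Gm39742, chr1:191928320-191928619, plus strand, beside MSTRG.2873.1), a window in which a transcript begins on the strand of a protein-coding gene (Ndufb1, a subunit of mitochondrial complex I, chr12:101975689-101975988, minus strand, beside MSTRG.8783.1) and the transcript with the most exons (Gm7072, chr17:22314793-22315092, minus strand, beside MSTRG.15034.4). Capitals mark the motifs searched on both strands, namely TATAA or TTATA (the TATA box), CCAAT or ATTGG (the CCAAT box) and GGGCGG or CCGCCC (the GC box bound by Sp1); TATAA and TTATA overlap where both occur as TTATAA.
Gm39900: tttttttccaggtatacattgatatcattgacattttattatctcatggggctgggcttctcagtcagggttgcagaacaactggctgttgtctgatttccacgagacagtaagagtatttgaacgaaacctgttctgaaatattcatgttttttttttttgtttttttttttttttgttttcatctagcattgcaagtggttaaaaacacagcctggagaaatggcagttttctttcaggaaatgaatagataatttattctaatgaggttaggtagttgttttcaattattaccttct
Gm36071: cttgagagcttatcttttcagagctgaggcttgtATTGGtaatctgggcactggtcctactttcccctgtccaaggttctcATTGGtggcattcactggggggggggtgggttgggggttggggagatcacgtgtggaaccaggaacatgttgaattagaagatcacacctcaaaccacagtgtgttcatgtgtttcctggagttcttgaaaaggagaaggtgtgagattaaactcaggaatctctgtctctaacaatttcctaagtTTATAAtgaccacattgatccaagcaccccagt
Gm39742: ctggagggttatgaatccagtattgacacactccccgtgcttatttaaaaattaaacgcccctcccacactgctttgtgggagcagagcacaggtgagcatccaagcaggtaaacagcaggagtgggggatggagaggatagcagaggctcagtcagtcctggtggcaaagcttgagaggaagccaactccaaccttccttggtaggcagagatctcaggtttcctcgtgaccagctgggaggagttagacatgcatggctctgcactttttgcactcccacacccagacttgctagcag
Ndufb1: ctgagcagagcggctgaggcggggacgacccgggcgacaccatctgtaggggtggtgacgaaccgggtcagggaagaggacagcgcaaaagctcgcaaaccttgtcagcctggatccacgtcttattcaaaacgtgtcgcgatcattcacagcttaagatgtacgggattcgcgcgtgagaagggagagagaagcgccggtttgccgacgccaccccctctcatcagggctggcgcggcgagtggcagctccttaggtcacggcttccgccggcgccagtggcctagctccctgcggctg
Gm7072: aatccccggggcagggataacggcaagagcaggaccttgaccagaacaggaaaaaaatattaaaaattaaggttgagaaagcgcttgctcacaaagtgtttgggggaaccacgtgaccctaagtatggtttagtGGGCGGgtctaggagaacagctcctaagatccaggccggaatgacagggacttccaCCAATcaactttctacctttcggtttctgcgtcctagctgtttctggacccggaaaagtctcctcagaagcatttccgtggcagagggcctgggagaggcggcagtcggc

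MSTRG.20255.5 began 65 bases before the RefSeq start of Gm39900 and MSTRG.33245.38 at position -1097 relative to that of Gm36071, so that its span includes the window. Where its exons lie within the span is not given in the table used, and the window may fall in an intron. Among all windows, 24.9% held TATAA, 37.4% CCAAT and 35.7% GGGCGG on either strand. Of the 108 windows in which an intergenic transcript started, 7.41% held TATAA, 28.7% CCAAT and 49.1% GGGCGG. The median number of CpG dinucleotides was 18.5 in these windows and 7 in all windows, and the Ndufb1 window above, with 29, belonged to the CpG-rich end while the Gm39900 window held 2. A match of letters in a window does not show that a factor binds there. One more sequence is given because its transcript separated the 24-month-old from the 12-month-old mice. MSTRG.15320.1 covers AC138228.3, a gene that GENCODE M21 has added as an unspliced transcript to be experimentally checked, and the first 300 bases of its exon (chr17:31912666-31912965, plus strand) were:
AC138228.3: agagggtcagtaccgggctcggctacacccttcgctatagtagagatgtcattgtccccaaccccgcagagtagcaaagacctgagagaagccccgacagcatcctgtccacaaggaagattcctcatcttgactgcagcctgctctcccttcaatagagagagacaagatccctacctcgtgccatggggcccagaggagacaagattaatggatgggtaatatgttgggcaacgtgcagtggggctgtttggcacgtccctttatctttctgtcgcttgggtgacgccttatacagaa

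MicroRNAs are cut from longer primary transcripts that annotation often leaves out, so the RefSeq hairpins (1005 in the table used) were searched for beside the intergenic transcripts. No intergenic transcript overlapped a hairpin, and 5 of them ended within 3000 bases upstream of 8 hairpins on the same strand. One mature arm is printed for each hairpin, from RefSeq with bases 2 to 8 (the seed, which pairs with target mRNAs) in capitals. It is the arm known as the usual guide strand of that microRNA, and the opposite arms, which have other seeds, are not printed. The printed arms fall into 4 groups by seed. MSTRG.39273.1 on chromosome X ended 387 bases before Mir222 and 970 bases before Mir221, whose 3p arms share a seed:
miR-221-3p: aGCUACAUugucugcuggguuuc
miR-222-3p: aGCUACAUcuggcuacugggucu
MSTRG.14974.1 on chromosome 17 ended 184 bases before Mirlet7e, and MSTRG.13016.6 and MSTRG.13016.7 on chromosome 15 ended 118 and 96 bases before Mirlet7c-2, with Mirlet7b farther on, and the 5p arms of these 3 microRNAs have the let-7 seed:
let-7e-5p: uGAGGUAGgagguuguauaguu
let-7c-5p: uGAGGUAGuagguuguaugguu
let-7b-5p: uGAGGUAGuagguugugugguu
Mir125a followed Mirlet7e, 644 bases past the end of MSTRG.14974.1, and its 5p arm has a seed of its own:
miR-125a-5p: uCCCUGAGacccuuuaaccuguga
MSTRG.29738.1 on chromosome 6 ended 850 bases before Mir29b-1 and 1196 bases before Mir29a, whose 3p arms have identical seeds:
miR-29a-3p: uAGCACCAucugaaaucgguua
miR-29b-3p: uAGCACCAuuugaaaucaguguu

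Of these transcripts, MSTRG.39273.1 was the highest by mean FPKM. It was at 2.93, 1.84, 2.005, 1.74 and 1.41 FPKM in the 3-month-old mice, at 0.680, 1.59, 0, 1.55 and 1.31 in the 12-month-old mice and at 0, 0, 1.74, 0.775 and 1.78 in the 24-month-old mice. The 3-month-old values lay in the upper part and the ages overlapped (24 against 3 months, log2 fold change -0.81, standard error 0.33, limma adjusted p = 0.591). MSTRG.14974.1 was between 0.511 and 2.73 FPKM in the 3-month-old mice and between 0 and 3.25 FPKM in the 24-month-old mice. MSTRG.13016.6 was at most 0.380 FPKM in every mouse, MSTRG.29738.1 was listed above 0 in 3 of the 15 mice and MSTRG.13016.7 in 1. No difference between the ages larger than the spread between mice was detectable for the transcripts beside the let-7, miR-125a and miR-29 hairpins.

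Most of the intergenic transcripts were short and unspliced. One exon made up 3662 of the 3978 transcripts (92.1%), and 316 had 2 or more (186 with 2, 82 with 3, 28 with 4, 13 with 5, 6 with 6 and 1 with 7). Length ran from 200 to 59813 bases with a median of 609. Transcripts of 1 exon had a median of 570 bases, and those of 2 or more exons a median of 2535.5 bases spread over a genomic span of 11477.5 bases. The median was 623 bases for the 11124 assembled transcripts inside introns, of which 98.1% had 1 exon, 1137 bases for the 1372 assembled antisense transcripts and 1222 bases for transcripts that match the annotation, of which 11.0% had 1 exon. The intergenic median was thus close to the intronic one and below the others. A minority was very long, with 292 transcripts of at least 5000 bases and 114 of at least 10000. These 292 carried 59.4% of all aligned bases on intergenic transcripts. The strands were evenly used (1958 plus, 2020 minus).

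The 4 longest models illustrate the long class. MSTRG.12450.3 (chr15:51054972-51157463, plus strand), with 4 exons and 59813 bases, lies in RefSeq Gm34446, 164931 bases from the start of Trps1, a GATA-type transcriptional repressor. MSTRG.34707.1 (chr8:4892891-4949742, plus strand) is a single exon of 56852 bases. MSTRG.32683.1 (chr7:40591913-40636527, minus strand) and MSTRG.3369.2 (chr10:35402416-35446640, minus strand) are single exons of 44615 and 44225 bases. The long models varied between mice of one age. MSTRG.3369.2 was at 1.08, 1.94e-04, 1.58, 6.16 and 5.02 FPKM in the 3-month-old mice and at 7.02, 0.703, 3.94, 8.04 and 1.33 in the 24-month-old mice. None of the 4 was called between 24 and 3 months, with log2 fold changes from 0.52 to 0.82 and limma adjusted p from 0.443 to 0.777. Another model of the locus of MSTRG.12450.3, MSTRG.12450.5, was called higher at 24 months (log2 fold change 1.04, limma adjusted p = 0.173). The most exons belonged to MSTRG.15034.4 with 7, and to MSTRG.15034.2, MSTRG.10630.2 and MSTRG.11785.18 with 6 each. The first pair lies in the zinc finger gene region of chromosome 17, within RefSeq Gm7072. MSTRG.10630.2 spans Gm10732, a long intergenic noncoding RNA upstream of Fgf10, a growth factor of epithelial branching, and was steady, between 0.973 and 1.56 FPKM in the 3-month-old mice, between 1.20 and 1.48 in the 12-month-old mice and between 1.05 and 1.76 in the 24-month-old mice. Between 24 and 3 months its log2 fold change was 0.07 with a standard error of 0.14. MSTRG.11785.18 was between 0 and 1.56 FPKM at 3 months and between 0.0755 and 1.47 at 24 months. Its nearest annotated gene, Gm6999, had a log2 fold change of 1.15 over all its listed transcripts (limma adjusted p = 0.0166). GENCODE M21 and RefSeq draw Gm6999 over this position, so MSTRG.11785.18 may be part of that gene.

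Every chromosome held intergenic transcripts, but not in proportion to its genes. Chromosome 2 had the most (324), followed by chromosomes 13 (270), 4 (261), 1 (259) and 16 (246), and chromosome Y had 5. Per 100 annotated genes, chromosome 16 had 30.3, chromosome 13 had 26.4, chromosome 18 had 21.7 and chromosome 15 had 21.5. Chromosomes 12 to 19 each had more than any other chromosome, with chromosome 19 lowest of them at 13.41 and chromosome 4 next at 13.40. The class code depends on where the annotation has genes, and the part of annotation coverage in these numbers was not tested. Chromosomes 5, 11 and 7 had 6.62, 6.86 and 7.09, and chromosome Y had 1.12. Chromosome 16 thus held 6.18% of the intergenic transcripts and 2.46% of the annotated genes, and chromosome 7 held 4.95% and 8.42%. The median distance to the nearest annotated gene was also largest on chromosome 16 (53059 bases) and smallest on chromosome 11 (3995 bases). Strand was uneven on some chromosomes, with 136 of 204 on the plus strand on chromosome 15 and 34 of 107 on chromosome 19.

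**Figure D1:**
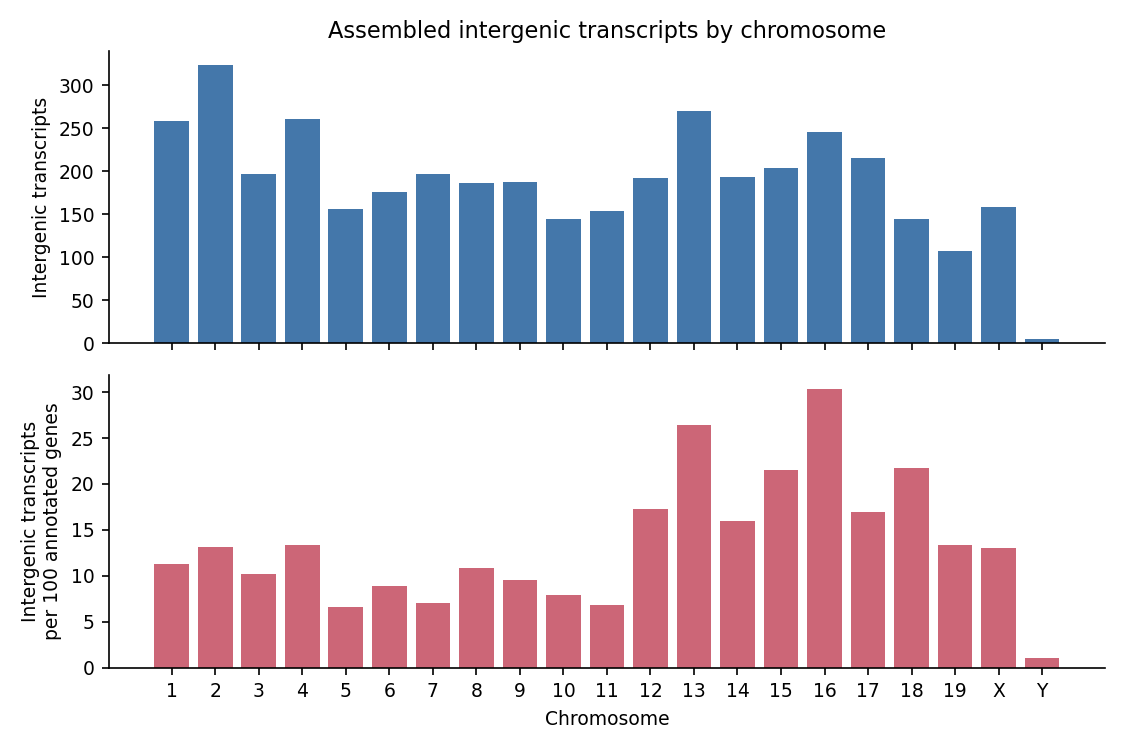
Number of assembled intergenic transcripts on each chromosome (upper bars) and the same number per 100 annotated genes of that chromosome (lower bars). Chromosome 2 has the most transcripts (324), and chromosomes 16 (30.3) and 13 (26.4) have the most per 100 genes.

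The transcripts were bunched along the chromosomes. Joined on one strand when less than 5 kb apart, they formed 2514 stretches, of which 1789 held a single transcript and 99 held 5 or more, with 13 in the largest. The densest windows of 1 Mb each held 45, and were on chromosome 1 from 23256944 to 23761712 (36 on the minus strand, beside B3gat2, a glucuronyltransferase) and on chromosome 16 from 6009754 to 6691322 (44 on the plus strand, between 1700123O21Rik and Rbfox1, a splicing factor). The window before it on chromosome 16 held 25, all on the plus strand. On chromosome 2 around Acbd5 all 28 were on the minus strand, on chromosome 17 beside Zfp97 all 24 were on the plus strand, and on chromosome 4 beside Grin3a all 23 were on the plus strand. One strand thus dominated these 6 windows. In the zinc finger gene cluster around Zfp808 on chromosome 13, 11 of 24 were on the plus strand. RefSeq and GENCODE M21 place some of the chromosome 16 transcripts inside a longer Rbfox1 than the annotation of the deposited table has, MSTRG.13502.1 among them.

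The nearest annotated gene lay at a median distance of 9041.5 bases, from 1 to 995413 bases. Within 5000 bases of a gene were 1422 transcripts (35.7%), and 337 were more than 100000 bases from any. The 3978 transcripts had 2004 distinct nearest genes, and for 2639 transcripts (66.3%) that gene was protein-coding. The commonest position was downstream of the gene on its own strand (1383, 34.8%), followed by the opposite strand beside the gene's start (1131, 28.4%), with 732 upstream on the same strand and 732 on the opposite strand beside the gene's end. Position changed with distance. Up to 1000 bases from a gene, most transcripts lay head to head with it on the opposite strand, the arrangement of divergent promoters. Between 2000 and 5000 bases, most lay downstream on the same strand. Below 2000 bases there were almost none downstream on the same strand, since the comparison step gives such transcripts another class code (p).

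**Figure D2:**
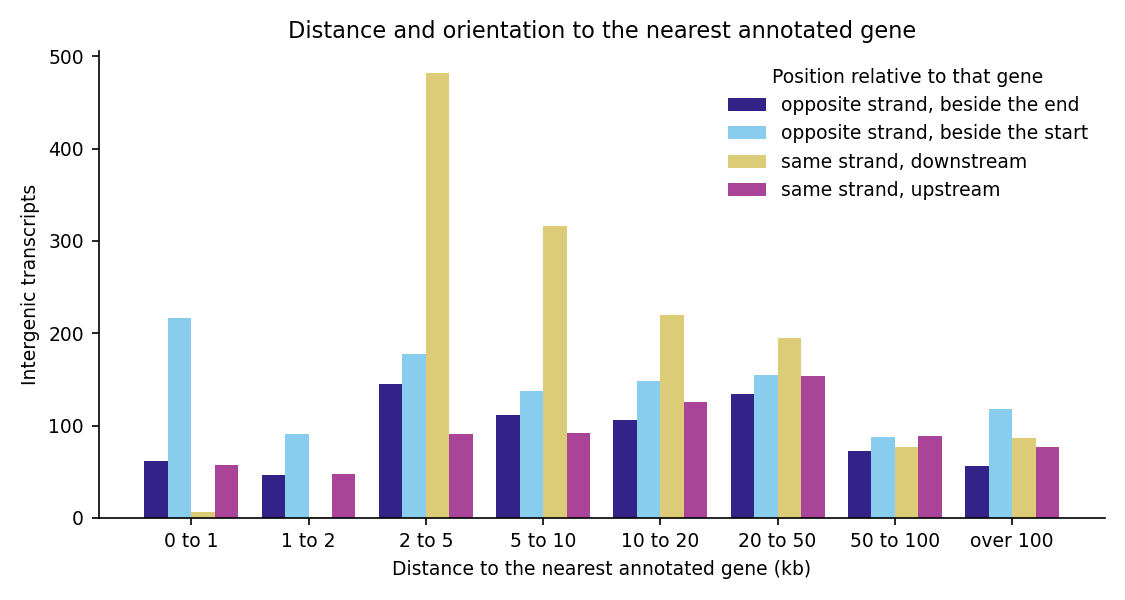
Number of intergenic transcripts (vertical axis) by distance to the nearest annotated gene in kb (horizontal axis) and by position relative to that gene (colours). The opposite strand beside the gene's start leads up to 1 kb, and the same strand downstream leads from 2 to 50 kb.

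Later annotation has since filled in some of these places. Of the 3978 transcripts, 475 (11.9%) overlapped a GENCODE M21 gene on the same strand, and 192 shared an exon with one. In 216 of the 475 the gene's symbol is in the deposited table, so that the gene is now drawn longer than it was, and in 259 it is not. Spans of RefSeq genes on either strand overlapped 1282 transcripts (32.2%). Neither overlapped 2553 (64.2%). A same-strand M21 gene was found for 84 of the 316 spliced transcripts (26.6%) and for 391 of the 3662 of 1 exon (10.7%). None of the 11929 circular RNAs deposited with the series overlapped an intergenic transcript.

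Abundance was low and patchy. The mean FPKM over the 15 mice had a median of 0.277, was at least 1 for 339 transcripts (8.52%) and at least 10 for 8. The same median was 0.190 for annotated transcripts, 0.297 for intronic and 0.450 for antisense ones. Spliced intergenic transcripts were higher (median 0.726) than those of 1 exon (0.266). Only 280 transcripts (7.04%) were listed above 0 in all 15 mice, 52 had an FPKM of at least 1 in all 15, and 319 (8.02%) were above 0 in a single mouse. Since assembly chose transcripts that some library showed, 3783 reached an FPKM of 1 in at least 1 mouse.

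One transcript stood far above the rest. MSTRG.25835.1 (chr4:133095721-133100789, plus strand, 2 exons, 4626 bases) carried 11.0% of the summed mean FPKM of all intergenic transcripts and 14.6% of their aligned bases. This transcript lay 6575 bases downstream of its nearest annotated gene, Gm26615. The nearest protein-coding gene was Ahdc1, a DNA-binding protein with AT-hook motifs, and MSTRG.25835.1 lay 17611 bases downstream of that gene. MSTRG.25835.1 was at 579, 246, 308, 239 and 316 FPKM in the 3-month-old mice, at 193, 188, 205, 229.8 and 193 in the 12-month-old mice and at 199, 130.3, 157, 148 and 213 in the 24-month-old mice. The 3-month-old mice were all above the 24-month-old mice, and replicate 5 was the highest of all. Its log2 fold change at 24 against 3 months was -0.93 (standard error 0.28, limma adjusted p = 0.410), short of the limit of 1 that a call needs.

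The other 9 of the 10 most abundant had mean FPKM of 25.3 or less. MSTRG.30233.1 (308 bases, 12986 bases from the start of Herc3, a ubiquitin ligase) was at 17.2, 17.5, 19.4, 19.8 and 20.8 FPKM in the 3-month-old mice and at 29.2, 25.6, 32.5, 34.7 and 31.8 in the 24-month-old mice, with no overlap (log2 fold change 0.67, standard error 0.12 and adjusted p = 0.172 from limma). MSTRG.31671.1, beside the organic anion transporter gene Slco1a6, was between 9.24 and 18.3 FPKM at 3 months and between 14.8 and 18.7 at 24 months. MSTRG.1617.1, beside Acmsd, an enzyme of tryptophan breakdown, was between 6.40 and 17.6 and between 9.25 and 14.4 FPKM at these ages. The ages overlapped for both. MSTRG.2873.1, downstream of the zinc exporter gene Slc30a1, was between 8.17 and 11.7 and between 9.53 and 12.5 FPKM, and MSTRG.36608.1, beside the deubiquitinase gene Usp10, between 6.75 and 10.8 and between 9.23 and 11.9 FPKM. MSTRG.11055.1, downstream of Oxnad1, was between 0.401 and 23.9 FPKM at 3 months with replicate 9 at 0.401, and between 9.33 and 11.8 FPKM at 24 months. None of these 5 was called between 24 and 3 months. MSTRG.15351.1, downstream of the zinc finger gene Zfp871, was either off or on in a mouse. It was at 22.6, 0, 26.9, 0 and 0 FPKM in the 3-month-old mice, 20.9, 0, 17.2, 0 and 22.6 in the 12-month-old mice and 0, 25.0, 0, 29.9 and 31.2 in the 24-month-old mice. It was thus listed at 0 in 7 mice of all 3 ages, and GENCODE M21 draws Zfp871 over this position. MSTRG.7741.1 and MSTRG.16690.1 complete the 10 and are described with the differences between ages.

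With age, the number of faintly detected intergenic transcripts fell, while no fall was detected in the share of aligned bases on all intergenic transcripts. Intergenic transcripts with an FPKM above 0 and below 1 numbered 1278, 1293, 1232, 1282 and 1253 in the 3-month-old mice, 890.0, 813, 906, 999 and 744 in the 12-month-old mice and 664, 846, 672, 681 and 705 in the 24-month-old mice. All 3-month-old mice were above all older mice (24 against 3 months, exact permutation test, 2-sided, p = 0.00794, 0.0119 after Benjamini-Hochberg adjustment over 3 comparisons; 0.00794 is the smallest p that 5 mice against 5 allow). Counted as any FPKM above 0, they numbered 1792, 1805, 1830.0, 2033 and 1728 at 3 months, 1379, 1621, 1650.0, 1863 and 1483 at 12 months and 1435, 1582, 1740.0, 1472 and 1681 at 24 months, where the mean fell by 255.6 between 3 and 24 months (exact permutation test, p = 0.0159, 0.0476 after Benjamini-Hochberg adjustment). At an FPKM of at least 1 the order turned, from 570.0 ± 111 (SD, n = 5) at 3 months to 729 ± 144 at 12 and 868 ± 145 at 24 months (24 against 3 months, exact permutation test, p = 0.0159, 0.0476 after Benjamini-Hochberg adjustment). The direction of a detection count therefore depended on the FPKM it required.

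Transcripts inside introns followed the same course, with 2497 ± 99.0 of them between 0 and 1 FPKM at 3 months, 1882 ± 115 at 12 and 1558 ± 228 at 24 months. Annotated transcripts went the other way, with 43755, 47567 and 47160.0 on average. Library depth moved with age too. The aligned bases behind a library, computed from coverage and FPKM, had a median of 6.04 Gb at 3 months, 7.17 Gb at 12 months and 7.00 Gb at 24 months. The median number of aligned bases on an intergenic transcript listed above 0 was 3100.1 ± 374 at 3 months, 5656 ± 899 at 12 and 6774 ± 1048 at 24 months, without overlap between the 3-month-old and the older mice. The part of depth and of the assembly in these detection counts was not tested.

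**Figure D3:**
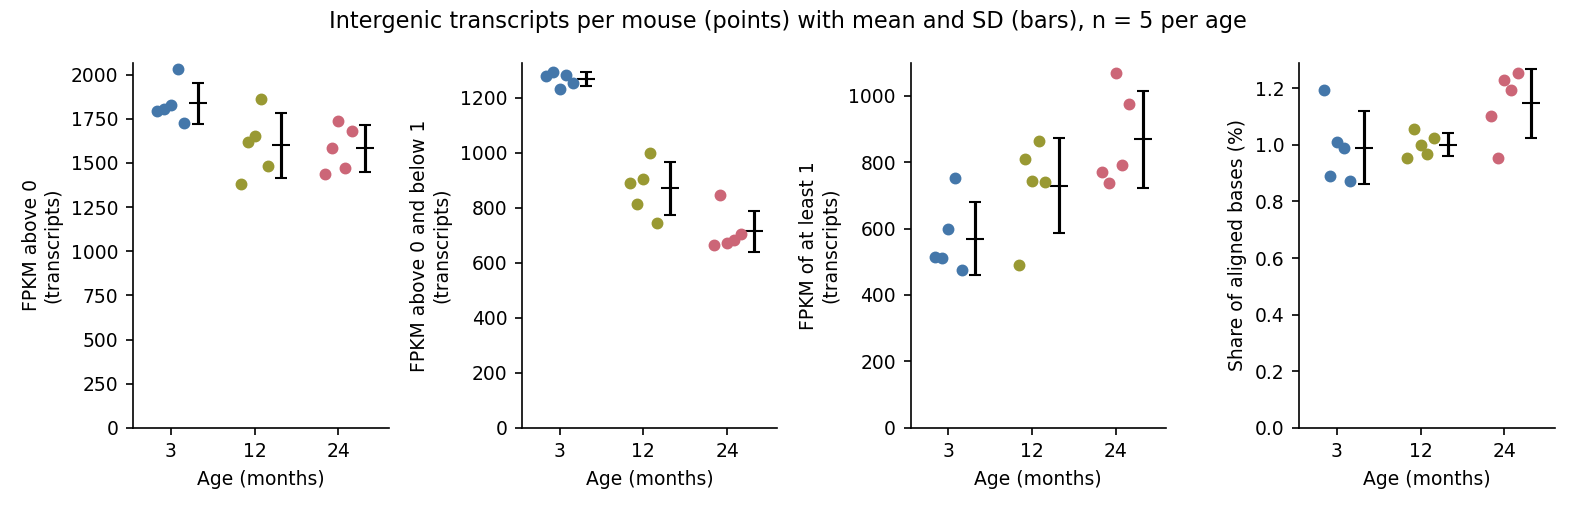
Intergenic transcripts in each mouse (points, 5 per age) with the mean and SD of each age (bars): the number with FPKM above 0, the number above 0 and below 1, the number of at least 1, and their share of the aligned bases on all listed transcripts in percent, against age in months. The number between 0 and 1 is at least 1232 in every 3-month-old mouse and at most 999 in every older mouse, whereas the number of at least 1 is higher at 24 months on average.

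Shares were taken of the aligned bases summed over all listed transcripts. The share on intergenic transcripts was 1.19, 0.890, 1.01, 0.990 and 0.871% in the 3-month-old mice, 0.955, 1.06, 0.998, 0.968 and 1.02% in the 12-month-old mice and 1.10, 0.954, 1.23, 1.19 and 1.25% in the 24-month-old mice. The ages overlapped and the difference between 24 and 3 months, 0.156 percentage points, did not exceed the spread (exact permutation test, p = 0.0952, 0.143 after Benjamini-Hochberg adjustment). The abundant transcripts weighed on this figure. Without the 10 of highest mean FPKM, the share was 0.729 ± 0.0605% (SD, n = 5), 0.825 ± 0.0482% and 0.983 ± 0.108% at 3, 12 and 24 months, and every 24-month-old mouse was above every 3-month-old mouse (exact permutation test, p = 0.00794, 0.0238 after Benjamini-Hochberg adjustment). Transcripts of 1 exon rose from 0.575 ± 0.0609% through 0.653 ± 0.0417% to 0.773 ± 0.0801% of aligned bases (24 against 3 months, exact permutation test, p = 0.00794, 0.0238 after Benjamini-Hochberg adjustment), and spliced ones were at 0.415 ± 0.0847%, 0.348 ± 0.0159% and 0.373 ± 0.0550% (24 against 3 months, exact permutation p = 0.444, 0.444 after Benjamini-Hochberg adjustment). The spliced sum includes MSTRG.25835.1, which carried 14.6% of all aligned bases on intergenic transcripts and had a log2 fold change of -0.93. Counted per transcript on log2(FPKM + 1), spliced ones did not lag behind. Their median log2 fold change at 24 against 3 months was 0.12, with 200 of 314 above 0. For transcripts of 1 exon it was 0.06, with 1958 of 3562 above 0. Set against transcripts inside introns, no difference was detected in the share. The ratio of aligned bases on intergenic to those on intronic transcripts was 0.309 ± 0.0434 at 3 months, 0.336 ± 0.0243 at 12 and 0.337 ± 0.0249 at 24 months (24 against 3 months, exact permutation test, p = 0.254, 0.393 after Benjamini-Hochberg adjustment).

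Single transcripts were compared between ages with limma on log2(FPKM + 1), a scale on which the change of low transcripts is understated. A transcript was called where the unadjusted p was under 0.05 and the log2 fold change beyond 1 in either direction. Between 24 and 3 months, 31 of 3876 intergenic transcripts tested were called, 26 higher and 5 lower at 24 months. Over all transcripts tested the share called was 0.795%, with 0.465% higher and 0.33% lower, beside an intergenic share of 0.800%, with 0.671% higher and 0.129% lower, and a share of 0.554% for annotated transcripts. Where the 10 mice averaged 1 FPKM or more, 18 of 352 were called (5.11%), against 2.87% of all such transcripts and 2.5% of annotated ones. Of such transcripts inside introns, 47 of 1170 were called (4.02%). Whether these shares differ was not tested. By the unadjusted p alone, without a fold limit, 352 intergenic transcripts (9.08%) were under 0.05, and 7.9% of all transcripts. The 31 called transcripts lay on 16 chromosomes, 6 of them on chromosome 8 and 4 on chromosome 2, 26 had 1 exon and 12 overlapped a RefSeq gene span. With the p adjusted over all transcripts (Benjamini-Hochberg), 4 intergenic transcripts (0.103%) remained under 0.05, all higher at 24 months. Of all transcripts tested, 0.0192% were under 0.05 in either direction. All 5 of the 24-month-old mice were above all 5 of the 3-month-old mice for 100 intergenic transcripts (2.58%; 1.6% of all transcripts tested) and below them for 11 (0.284%; 0.53% of all). Among the 352 that averaged 1 FPKM or more, the median log2 fold change was 0.24, with 249 above 0, against 0.03 over the 30094 such transcripts of all kinds and 0.14 over 1170 intronic ones.

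The 12-month-old mice were set against both other ages in the same way. Between 12 and 3 months, 23 of 3855 were called, 19 higher and 4 lower (0.784% of all transcripts called, 0.466% higher and 0.317% lower). None had an adjusted p under 0.05 by limma, while 293 (7.6%) had an unadjusted p under 0.05 (0.00481% and 7.46% of all transcripts). All 12-month-old mice were above all 3-month-old mice for 60 and below them for 14 (1.33% and 0.524% of all). Between 24 and 12 months, 15 of 3738 were called, 11 higher and 4 lower (0.402% of all, 0.186% higher and 0.216% lower). An unadjusted p under 0.05 was found for 188 (5.03%; 4.47% of all) and an adjusted p under 0.05 for 1 (0.0268%; 0.00559% of all). Without overlap, 21 were higher and 9 lower at 24 months (0.431% and 0.351% of all). An F test over the 3 ages gave 8 intergenic transcripts with an adjusted p under 0.05 (0.201%; 0.0426% of all transcripts). In 10 transcripts (0.266%; 0.234% of all transcripts) the call was the same at 12 and at 24 months against 3 months. Each pair of these comparisons shares the mice of an age, so such a count is no independent evidence, and the values of each comparison are given side by side here. In all, 54 transcripts (1.36%; 1.54% of all) were called in at least 1 comparison.

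The smallest p belonged to MSTRG.20255.5, a transcript of 3 exons and 3676 bases (chr2:105435467-105441746, plus strand) that begins in the Gm39900 promoter window printed above, 36148 bases from the start of Rcn1, a calcium-binding protein of the endoplasmic reticulum. It was at 0.387, 0.291, 0.453, 0.314 and 0.414 FPKM in the 3-month-old mice, at 2.07, 1.90, 2.85, 1.53 and 2.40 in the 12-month-old mice and at 2.24, 1.99, 2.50, 3.28 and 2.30 in the 24-month-old mice. Every older mouse was above every 3-month-old mouse, and the 12-month-old and 24-month-old mice overlapped. It rose between 3 and 24 months (log2 fold change 1.33, standard error 0.12 and adjusted p = 0.0173 from limma) and over the 3 ages (F test, limma adjusted p = 0.00240), and at 12 against 3 months it was called with an adjusted p of 0.0667 (log2 fold change 1.19). The 7 intergenic transcripts from 105418366 to 105446695 on chromosome 2 were all on the plus strand. Together they took 8.69, 3.22, 21.8, 9.23 and 5.89 bases per Mb of the aligned bases on all listed transcripts at 3 months and 28.9, 36.3, 31.4, 51.7 and 46.0 at 24 months, with 3-month-old replicate 7 nearest to the older mice. The row was picked because it holds MSTRG.20255.5, whose bases are in the sum. Several of the others are models of the same locus. The sum is therefore a description and no independent evidence. Rcn1 itself, summed over its transcripts, was at 1.62, 1.23, 1.42, 1.27 and 1.74 FPKM at 3 months and 3.13, 2.22, 2.68, 5.98 and 2.24 at 24 months (log2 fold change 0.73, limma adjusted p = 0.158). The podocyte gene Wt1, beyond Rcn1 on the same side, had a log2 fold change of 0.11 (limma adjusted p = 0.729).

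3 of the transcripts with an adjusted p under 0.05 lay in one row past the end of Maf, a basic leucine zipper transcription factor, on its strand. MSTRG.36531.1 (chr8:115557497-115567337, minus strand) is a single exon of 9841 bases beginning 115605 bases past the end of Maf. It was at 0.454, 0.232, 0.316, 0.143 and 0.134 FPKM in the 3-month-old mice, 1.58, 1.34, 1.33, 1.55 and 1.93 in the 12-month-old mice and 1.73, 1.59, 2.06, 2.66 and 1.94 in the 24-month-old mice. Both older groups were wholly above the 3-month-old mice (log2 fold change 1.25, standard error 0.14 and adjusted p = 0.0299 at 24 months, F test adjusted p = 0.00294, limma). MSTRG.36528.1 (chr8:115523203-115534135, minus strand), 10933 bases and 148807 bases past Maf, was at 0.318, 0.170, 0.135, 0.154 and 0.128 FPKM at 3 months, 1.34, 1.12, 1.14, 1.14 and 1.71 at 12 months and 1.44, 1.33, 1.62, 2.20 and 1.87 at 24 months. It did not overlap between 3 months and the older ages either (log2 fold change 1.18, standard error 0.13 and adjusted p = 0.0299 at 24 months, F test adjusted p = 0.00319, limma). MSTRG.36526.1 (chr8:115481826-115508266, minus strand), 26441 bases and 174676 bases past Maf, was at 0.118, 0.129, 0.135, 0.113 and 0.0793 FPKM at 3 months, 1.40, 0.934, 0.940, 1.02 and 1.38 at 12 months and 0.848, 0.895, 1.51, 1.73 and 1.55 at 24 months, again apart from the 3-month-old mice (log2 fold change 1.03, adjusted p = 0.0915; F test adjusted p = 0.0153, limma).

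The region was then taken as a whole, after these values had been seen. It held 20 intergenic transcripts between 115413514 and 115839451 on chromosome 8, 17 of them on the minus strand. Their summed share was 29.4, 21.9, 24.5, 18.7 and 14.2 bases per Mb of the aligned bases on all listed transcripts in the 3-month-old mice, 162, 123, 132, 117 and 191 in the 12-month-old mice and 156, 157, 195, 257 and 141 in the 24-month-old mice. The lowest older mouse was thus several times the highest 3-month-old mouse. Maf was at 18.3, 35.3, 32.1, 36.1 and 26.9 FPKM at 3 months, 25.5, 32.6, 39.5, 22.3 and 28.2 at 12 months and 4.15, 15.2, 20.8, 2.18 and 27.7 at 24 months. Its ages overlapped and its log2 fold change at 24 against 3 months was -1.43 (unadjusted p = 0.0354 and adjusted p = 0.324 from limma). Maf was thus called lower at 24 months by the rule used for the transcripts, in the opposite direction to those beside it. The annotated lncRNA gene 4930488N15Rik, on the opposite strand between Maf and these transcripts, was at 0.502, 0.135, 0.332, 0.115 and 0.128 FPKM at 3 months and 1.37, 1.03, 1.29, 1.81 and 1.34 at 24 months (log2 fold change 0.93, limma adjusted p = 0.0222). Wwox, an oxidoreductase gene beyond the far end of the row, had a log2 fold change of 0.23 (limma adjusted p = 0.542). The differences were largest in the long models nearest to Maf, and beyond MSTRG.36525.1 the one with an unadjusted p under 0.05 was MSTRG.36517.1 (log2 fold change 0.85, standard error 0.28).

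**Figure D4:**
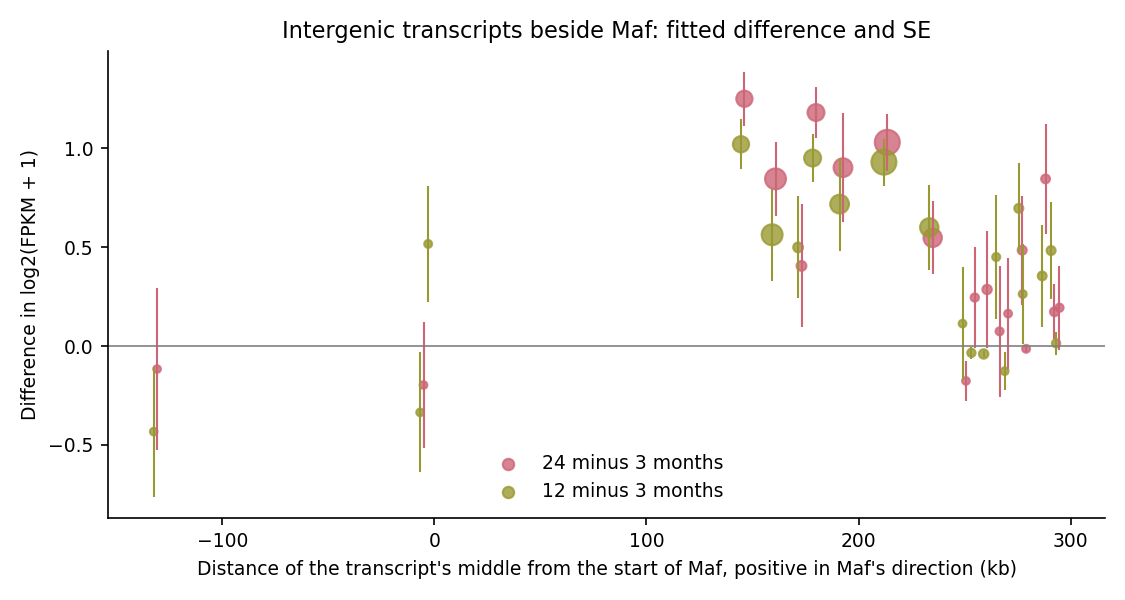
Fitted difference in log2(FPKM + 1) with its standard error for each intergenic transcript beside Maf, 24 minus 3 months and 12 minus 3 months, against the distance of the transcript's middle from the start of Maf in kb (positive in the direction of Maf's transcription; larger points are longer transcripts). The long models from MSTRG.36531.1 to MSTRG.36526.1 have differences of up to 1.25, and the 2 transcripts before the start of Maf that were tested at 24 months lie below 0.

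Another row of transcripts lay on chromosome 8 between 4635956 and 4999759, with 18 models, all on the plus strand. MSTRG.34703.1 (chr8:4883871-4886370, plus strand; 2500 bases, 1 exon) was at 1.68, 1.10, 1.49, 1.31 and 1.70 FPKM in the 3-month-old mice, 4.12, 3.89, 4.18, 2.30 and 3.95 in the 12-month-old mice and 4.93, 4.55, 4.31, 6.79 and 4.98 in the 24-month-old mice. The 3-month-old mice lay below all older mice (log2 fold change 1.31, standard error 0.14 and adjusted p = 0.0258 at 24 months, F test adjusted p = 0.0144, limma). MSTRG.34711.1 (35100 bases) was at 0.331, 0.112, 0.0792, 0.322 and 0.550 FPKM at 3 months, 0.587, 0.581, 1.39, 0.893 and 1.85 at 12 months and 1.31, 1.64, 1.80, 2.08 and 1.87 at 24 months, without overlap between 3 months and the older ages (log2 fold change 1.11, standard error 0.14 and adjusted p = 0.0657 at 24 months, limma). The longest model of the row, MSTRG.34707.1, was on in most mice and nearly off in some. It was at 1.25, 0.655, 1.19, 0.7495 and 1.22 FPKM at 3 months, 2.41, 2.92, 0.132, 0.0899 and 2.97 at 12 months and 0.130, 3.02, 3.36, 4.02 and 3.60 at 24 months, with 12-month-old replicates 19 and 20 and 24-month-old replicate 31 near 0. Of the 15 models tested at 24 against 3 months, 7 had an unadjusted p under 0.05 in limma, all higher. Among all transcripts tested, 5.43% were higher at that threshold. The row was picked because MSTRG.34703.1 had an adjusted p under 0.05, and neighbouring models may be pieces of a single RNA. The count of 7 is therefore a description and no independent evidence. The row as a whole, chosen after its values had been seen, took 152, 84.4, 139.9, 89.9 and 164 bases per Mb at 3 months, 304, 333, 170.0, 86.3 and 438 at 12 months and 132, 432, 484, 551 and 506 at 24 months, where 24-month-old replicate 31 lay within the 3-month-old range. A gene on the opposite strand within the row, Shcbp1, which acts in cell division, was at 0.186, 0.0571, 0.119, 0.222 and 0.208 FPKM at 3 months and 0.735, 1.17, 0.822, 1.23 and 0.891 at 24 months (log2 fold change 0.76, limma adjusted p = 0.0166).

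The spliced transcripts MSTRG.33245.38 and MSTRG.33245.36 are 2 models of one locus on chromosome 7 whose spans overlap, so they may share reads and are not independent. MSTRG.33245.38 (chr7:71153133-71169034, plus strand; 3 exons, 2661 bases) was at 0.931, 0.346, 1.03, 0.448 and 0.757 FPKM at 3 months, 2.20, 3.12, 2.43, 3.11 and 2.92 at 12 months and 2.24, 2.95, 3.44, 3.34 and 3.17 at 24 months. MSTRG.33245.36 (chr7:71137413-71157550, plus strand; 4 exons, 10194 bases) was at 0.838, 0.245, 0.864, 0.0944 and 0.651 FPKM at 3 months, 1.95, 1.85, 1.75, 1.84 and 2.19 at 12 months and 1.49, 2.12, 2.02, 1.98 and 1.77 at 24 months. In both, every older mouse was above every 3-month-old mouse. At 24 against 3 months the first had a log2 fold change of 1.25 (limma adjusted p = 0.0562) and the second of 0.93 (limma adjusted p = 0.192), and their F tests over the 3 ages had adjusted p of 0.00898 and 0.0454 (limma). RefSeq has placed Gm36071 over both. Nr2f2, a nuclear receptor gene upstream of both, had a log2 fold change of 0.17 (limma adjusted p = 0.754).

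The last of the transcripts past the F test was MSTRG.11139.1 (chr14:43538667-43540611, plus strand; 1 exon, 1945 bases), inside RefSeq Gm21154 and 2965 bases from Gm5799. It was at 0.303, 0.187, 0.434, 0.439 and 0.500 FPKM at 3 months, 2.35, 2.75, 2.21, 1.18 and 2.19 at 12 months and 3.17, 1.81, 1.29, 1.44 and 1.94 at 24 months. The 3-month-old mice lay apart from both older ages, between which there was no order (12 against 3 months, log2 fold change 1.17, adjusted p = 0.130; 24 against 3 months, 1.07, adjusted p = 0.132; F test, 0.0454; limma). The neighbouring genes belong to a family of similar copies, so the division of reads among them, and with it this level, is uncertain. A different course was seen for MSTRG.15320.1 (chr17:31912328-31920835, plus strand; 1 exon, 8508 bases), which includes the AC138228.3 sequence printed above. It was at 1.43, 1.34, 1.47, 0 and 1.40 FPKM at 3 months, 0.582, 0, 0, 0 and 0 at 12 months and 2.44, 2.68, 2.57, 2.68 and 1.83 at 24 months. It was thus listed at 0 in 4 of the 5 12-month-old mice, and all 24-month-old mice were above all others (24 against 12 months, log2 fold change 1.64, standard error 0.16 and adjusted p = 0.0365 from limma). Its F test had an adjusted p of 0.0622.

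**Figure D5:**
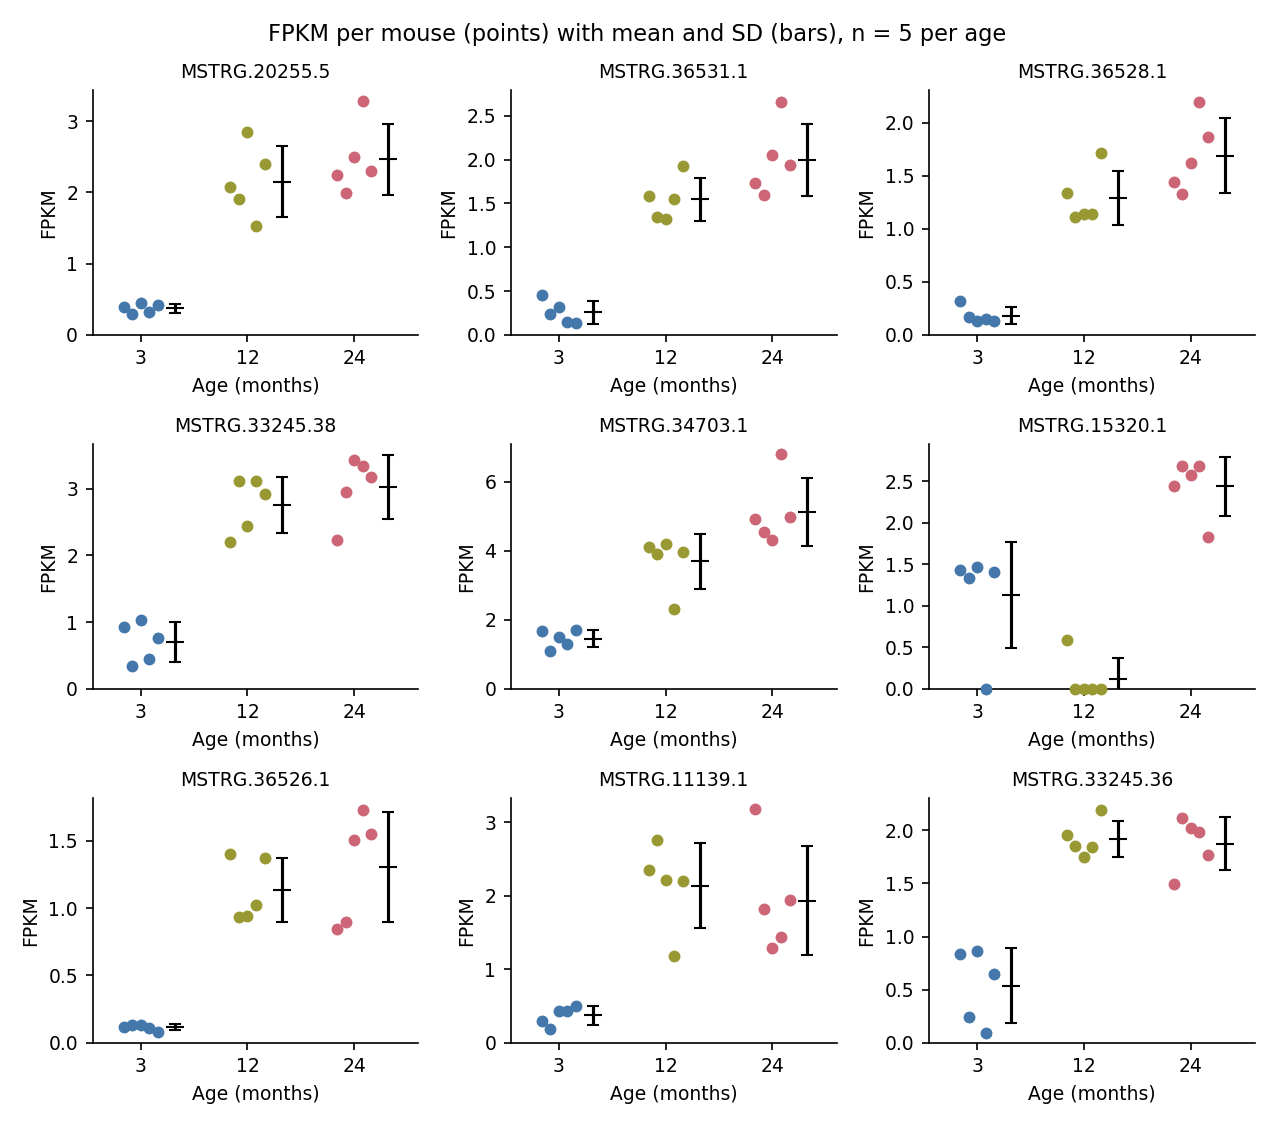
FPKM per mouse (points) with the mean and SD (bars) at 3, 12 and 24 months, 5 mice per age, for the 9 intergenic transcripts with an adjusted p under 0.05 in a comparison or in the F test over ages. In 8 of them the 3-month-old mice lie below all older mice, and in MSTRG.15320.1 the 12-month-old mice are lowest; each axis starts at 0, which hides the lower end of that bar.

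Other calls at 24 against 3 months did not pass the adjustment. In the zinc finger gene cluster of chromosome 2, MSTRG.21614.1 (777 bases, 9340 bases downstream of Gm14393) was at 0.634, 0.313, 0.603, 0.193 and 0.386 FPKM at 3 months, 2.41, 1.66, 5.01, 0 and 2.85 at 12 months and 4.88, 1.89, 4.73, 5.44 and 3.61 at 24 months (log2 fold change 1.80, standard error 0.22 and adjusted p = 0.0561, limma). Nearby, MSTRG.21610.1 (530 bases) was at 0.116, 0, 0.186, 0 and 0.330 FPKM at 3 months and 1.22, 1.12, 2.32, 2.33 and 1.73 at 24 months (log2 fold change 1.27, standard error 0.17 and adjusted p = 0.0790, limma). Both were without overlap between these ages, and 12-month-old mice spread from 0 upward. The largest called change was that of MSTRG.16690.1 (344 bases, chromosome 18), 8940 bases downstream of Pura, a single-strand nucleic acid-binding protein, at a place where GENCODE M21 draws Igip, an inducer of IgA. It was at 2.02, 3.55, 2.85, 0 and 2.69 FPKM at 3 months, 0, 28.0, 46.6, 28.1 and 31.8 at 12 months and 37.6, 17.6, 41.1, 3.49 and 37.1 at 24 months. At 12 months replicate 17 was at 0 and at 24 months replicate 34 lay within the 3-month-old range (log2 fold change 2.94, standard error 0.66 and adjusted p = 0.266, limma).

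The 5 transcripts called lower at 24 months were at few FPKM, and 3 of them were listed at 0 in every 24-month-old mouse. MSTRG.40182.1 on chromosome X was at 0.652, 1.03, 2.14, 1.36 and 2.21 FPKM at 3 months and at 0.689, 0, 0, 0 and 0 at 24 months (log2 fold change -1.11, standard error 0.24 and adjusted p = 0.239, limma). MSTRG.6812.1, downstream of Nfe2l1, a transcription factor of proteasome genes, was at 1.53, 1.42, 0, 1.75 and 2.01 FPKM at 3 months and at 0 in all 24-month-old mice. MSTRG.4640.1, 137 bases from the start of Pawr, a pro-apoptotic protein, was at 0, 1.72, 1.63, 1.48 and 0.971 FPKM at 3 months and at 0 in all 24-month-old mice. MSTRG.7796.1, far from Id2, an inhibitor of basic helix-loop-helix factors, was at 2.27, 0.0801, 2.93, 0 and 2.07 FPKM at 3 months and again at 0 in all 24-month-old mice. The ages overlapped in all 4, with a 3-month-old mouse at 0 in each of the last 3. MSTRG.26173.2 (2 exons, beside Vps13d, a lipid transfer protein) was at 1.16, 9.67, 4.92, 7.03 and 5.42 FPKM at 3 months, 1.09, 1.05, 1.42, 1.97 and 1.24 at 12 months and 1.35, 0.790, 1.39, 0.515 and 2.52 at 24 months, where 3-month-old replicate 5 was as low as older mice (log2 fold change -1.41, standard error 0.41 and adjusted p = 0.397, limma). For the other 4 the limma adjusted p lay between 0.239 and 0.544.

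At 12 against 3 months, a group of transcripts on the minus strand of chromosome 12, with Gm10479 as their nearest gene, was called together. MSTRG.7741.1 (945 bases) was at 8.80, 7.82, 12.8, 5.77 and 4.48 FPKM at 3 months, 20.7, 20.04, 16.3, 20.8 and 22.7 at 12 months and 11.5, 14.2, 15.3, 19.4 and 19.4 at 24 months. All 12-month-old mice were above all 3-month-old mice (log2 fold change 1.30, standard error 0.23 and adjusted p = 0.218, limma). MSTRG.7742.2 (1189 bases) was at 0.684, 0.592, 2.33, 2.38 and 0.773, 2.55, 2.59, 4.81, 11.1 and 6.17 and 0.866, 2.45, 0.661, 1.77 and 2.33 FPKM at these ages, higher at 12 months than at either other age (12 against 3 months, log2 fold change 1.38; 24 against 12 months, -1.21; limma adjusted p = 0.474 and 0.838). The neighbours MSTRG.7743.1 and MSTRG.7744.1, named here after their values had been seen, were also called higher at 12 months. Their log2 fold changes were 1.17 and 1.05 (limma adjusted p = 0.217 and 0.321). The models of this group lie close together on one strand and may be pieces of a single RNA. Their joint calls are therefore no independent evidence. Of those called lower, MSTRG.29906.1 (242 bases) lies in the T cell receptor beta locus near Trbv20. It was at 2.39, 1.17, 3.47, 1.26 and 3.57 FPKM at 3 months, at 0 in all 12-month-old mice and at 1.77, 2.24, 2.03, 0.339 and 0 at 24 months (12 against 3 months, limma adjusted p = 0.124). MSTRG.16553.1, far upstream of the RNA-binding protein gene Celf4, was between 4.32 and 16.6 FPKM at 3 months, between 1.85 and 4.02 at 12 months and between 3.04 and 7.22 at 24 months (log2 fold change -1.06, standard error 0.32 and adjusted p = 0.521, limma). MSTRG.14397.1 was between 0 and 3.65 FPKM at 3 months and between 0 and 0.635 at 12 months (log2 fold change -1.08, standard error 0.37 and adjusted p = 0.577, limma).

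At 24 against 12 months, MSTRG.22162.1 (beside Abhd18) was at 0, 0, 0, 0.496 and 0 FPKM at 12 months and 0.966, 1.03, 1.62, 1.83 and 1.43 at 24 months, without overlap (log2 fold change 1.12, standard error 0.17 and adjusted p = 0.419, limma). MSTRG.13502.1, inside the longer Rbfox1 on chromosome 16, was at 0, 0.242, 0, 0 and 0 and 1.26, 2.05, 0.504, 0.959 and 1.17 FPKM, also without overlap (log2 fold change 1.03, standard error 0.19 and adjusted p = 0.797, limma). MSTRG.11128.1, downstream of the mannose-binding lectin gene Mbl1, was between 0 and 1.81 FPKM at 12 months and between 1.37 and 2.96 at 24 months, where the ages overlapped. Of those called lower at 24 months, MSTRG.39225.1 and MSTRG.30876.1 (33 bases from the start of the nuclear receptor gene Nr2c2) were at 0 in all 24-month-old mice and up to 1.58 and 3.24 FPKM at 12 months (limma adjusted p = 0.216 and 0.838). MSTRG.7742.2, described above, was called lower as well.

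The paper's network of lncRNAs and mRNAs whose levels vary together includes 4 of the intergenic transcripts, which were chosen from these same mice. MSTRG.5617.1, beside Rack1, a scaffold protein of the ribosome, was at 0.549, 0.718, 0.986, 0.267 and 0.944 FPKM at 3 months and 3.54, 0.994, 3.33, 1.92 and 3.00 at 24 months, without overlap (log2 fold change 1.03, standard error 0.24 and adjusted p = 0.304, limma). MSTRG.6266.1, beside the Nogo receptor homologue gene Rtn4rl1, was at 0.160, 0.132, 0.160, 0.0487 and 0.0812 and 2.02, 0.767, 0.764, 1.53 and 0.455 FPKM, also without overlap (log2 fold change 0.86, limma adjusted p = 0.285). MSTRG.11751.1, downstream of the acetyltransferase gene Naa16, was between 0 and 2.16 FPKM at 3 months and at 0 in all 24-month-old mice. MSTRG.18359.1, downstream of the aminopeptidase gene Xpnpep1, was between 0 and 1.74 FPKM at 3 months and between 1.02 and 2.17 at 24 months. The ages overlapped in the last 2, and GENCODE M21 draws Naa16 and Xpnpep1 over the positions of these transcripts. At 12 months the 4 transcripts of the network reached at most 2.38, 0.504, 1.02 and 1.48 FPKM.

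The 31 transcripts called between 24 and 3 months had 29 distinct nearest genes, and none of these genes was called by the same rule on summed FPKM (0.618% of all genes tested were called), while 8 of the 29 had an unadjusted p under 0.05 by limma (13.4% of all genes). Where the nearest gene that codes for protein was taken instead, 1 was called, Maf, the nearest such gene of MSTRG.36528.1 and MSTRG.36531.1, and it was lower. On log2(FPKM + 1), a gene below 1 FPKM in every mouse cannot pass the limit of 1. Among the 29, 4930527A07Rik was at means of 0.0144 and 0.0459 FPKM at 3 and 24 months. The gene 4930488N15Rik rose from a mean of 0.242 to 1.37 FPKM and stayed short of the limit. That none of the 29 was called therefore does not show that they were unchanged. The log2 fold changes of the 29 nearest genes of any kind ran from -0.39 to 0.93, the highest being 4930488N15Rik. The sign was that of the transcript for 25 of the 31 pairs. Over the 331 intergenic transcripts whose mean FPKM was at least 1 and which had a tested nearest gene, Spearman's rho between the log2 fold changes of the transcript and of the gene was 0.135. The points share libraries and, where transcripts lie in a row, genes, so this is a description. The sign was the same for 192 of the 331 pairs (58.0%).

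As a check on the tissue, markers of kidney cell types were high in all mice, with 5 proximal tubule genes summing to between 1036 and 1607 FPKM and 2 thick ascending limb genes to between 592 and 979 FPKM. Of 40 markers of 14 cell types, 1, of B or plasma cells, was called at 24 against 3 months (higher). The 3 markers of B or plasma cells summed to between 1.17 and 3.31 FPKM at 3 months, 2.45 and 18.6 at 12 months and 3.92 and 11.8 at 24 months, and the 3 markers of T cells to between 0.640 and 2.10, 1.94 and 2.90, and 1.13 and 3.93 FPKM. The part of these cells in the differences of intergenic transcripts was not tested. Across the intergenic transcripts, 3-month-old replicate 8 was the mouse least like the others (median correlation 0.321 with the other mice, against 0.394 to 0.492 for the rest).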

How the data were processed

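Kidney RNA of 15 mice was sequenced, 1 library each, and the mice are the replicates. According to the paper, the authors removed adapters (Cutadapt), aligned reads to GRCm38 by HISAT2 and Bowtie2 using the Ensembl 88 annotation, and assembled and merged transcripts with StringTie. The submitters' processing notes name StringTie, TopHat and TopHat2 instead of these mappers, and give no versions. The authors deposited for each transcript and mouse an FPKM value and a mean coverage. Coverage multiplied by length gives aligned bases, and its ratio to FPKM gives the library's total. The estimated counts and FPKM that the authors deposited for circular RNAs were not used beyond the positions of the circular RNAs.

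Members are the 3978 transcripts with class code u, none of which was left out. The fits used limma 3.58.1 in R 4.3.3 (moderated by eBayes, with a mean trend) on log2(FPKM + 1), with only the mice of both ages in each fit and all 15 in the F test. Transcripts of any class that were listed above 0 in 1 or more mice of a fit were fitted and adjusted together by Benjamini-Hochberg. Genes were the sum of their transcripts. Values per mouse were compared with the exact permutation test over the 252 assignments of 10 mice. The limma script was tested on simulated data. Distances were taken to the gene spans of the deposited table, and later annotation from GENCODE M21 and RefSeq (GRCm38.p6). Transcripts named were the called ones of smallest p in each direction, the 10 most abundant, the 4 longest, the 4 with most exons, those of the paper's network and those past an adjusted p of 0.05. One transcript that this rule names is not reported here. The members and lists were chosen with earlier results of these data known. Other steps ran in Python 3.11.15 (scipy 1.17.1, pandas 2.3.3, numpy 2.4.6, matplotlib 3.10.9). FPKM holds no counts, so no counting interval is given, and depth per library was 5.03 to 8.03 Gb. Alternatives were another pseudocount, a filter on low values, a model of ballgown's form with library size as covariate, TPM and leaving out each mouse.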

Additional observations from a re-analysis of the deposited data

Results flagged for a closer look

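In 69 groups of 5 mice (19 transcripts at 3 ages, with the values per mouse), 8 held a mouse whose gap to the nearest other mouse took more than 0.71 of the group's range. Chance gives about 1 such group in 20. MSTRG.25835.1, the most abundant intergenic transcript, was at 579 FPKM in 3-month-old replicate 5 (median of the age 308). MSTRG.36528.1, past the end of Maf, was at 0.318 FPKM in the same mouse (median 0.154). MSTRG.2873.1 was at 18.2 FPKM in 12-month-old replicate 21 (median 11.3). MSTRG.34703.1 was at 2.30 FPKM in 12-month-old replicate 20 (median 3.95) and at 6.79 FPKM in 24-month-old replicate 34 (median 4.93). MSTRG.15320.1 was at 0 in 3-month-old replicate 8 (median 1.40), at 0.582 FPKM in 12-month-old replicate 17 (median 0) and at 1.83 FPKM in 24-month-old replicate 35 (median 2.57).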

How the results depend on the processing

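No paired analysis was possible because mice of different ages share no replicate number. The number of intergenic transcripts called between 24 and 3 months (31) was 326 with a pseudocount of 0.1, 279 on TPM, 74 with an F test with a library covariate, 17 with an FPKM of at least 1 required in at least 5 mice, 4 with an adjusted p and 32 to 53 leaving out 1 mouse (47 without 24-month-old replicate 31, 53 without replicate 32). Between 12 and 3 months (23) it was 299, 237 and, with an adjusted p, 0, and 23 to 33 leaving out 1 mouse. Between 24 and 12 months (15) it was 185, 168, 5 with the filter, 1 with an adjusted p and 17 to 28 leaving out 1 mouse (23 without 12-month-old replicate 17 or 24-month-old replicate 34, 28 without replicate 32). The F test over ages (8) gave 13 with the filter and 5 to 10 leaving out 1 mouse (5 without 3-month-old replicate 9). Nearest genes called (0) were 1 for the nearest protein-coding gene and 0 to 2 leaving out 1 mouse. With a pseudocount of 0.1 they were 30, counted among the nearest genes of the 326 transcripts called at that setting.

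The difference in the share of aligned bases was 0.254, 0.0959 and 0.158 percentage points without the 10 highest transcripts (24 against 3, 12 against 3 and 24 against 12 months). As a share of summed FPKM it was -0.0019 at 12 against 3 months, and of annotated transcripts 0.313 at 24 against 12 months. Leaving out 1 mouse it ran from 0.126 to 0.206 at 24 against 3 months (under the 0.05 threshold of the exact permutation test without 24-month-old replicate 32 or 3-month-old replicate 5), from -0.0198 to 0.0605 at 12 against 3 months and from 0.119 to 0.194 at 24 against 12 months (under it without 24-month-old replicate 32). Detected transcripts at an FPKM of at least 1 differed by 298.4, 158.8 and 139.6, the reverse of the direction at any FPKM above 0, and leaving out 1 mouse the differences at any FPKM above 0 ran from -295.1 to -206.75, -304.35 to -183.35 and -72.25 to 48.75. The ratio to intronic bases, added after seeing the data, differed by 0.0179 to 0.0446, 0.017 to 0.0437 and -0.00791 to 0.00812 leaving out 1 mouse, and was under the 0.05 threshold of the exact permutation test against both older ages without 3-month-old replicate 5. The cause was not tested for any of these. A fold limit on a log scale depends on its pseudocount, and the 9 transcripts with an adjusted p under 0.05 rest on FPKM of a few or less.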
